A study of Drosophila melanogaster with 3 samples.

Results

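The heat shock and chaperone genes examined here are 34 protein-coding genes of 13945 on the major chromosome arms of Drosophila melanogaster. They were taken by symbol: names that start with Hsp and a digit, with Hsc70-, with DnaJ- or with CCT, leaving out Hsc70-3. The data are peak lists from chromatin immunoprecipitation with sequencing (ChIP-seq) for Traffic jam (tj), a transcription factor of the large Maf family. Whole adult females of the transgenic strain tj-GFP, which stably makes tj with GFP fused to its C terminus (tj-eGFP), were used, and the fusion protein was pulled down with an anti-GFP antibody from sonicated chromatin of 200 to 800 bp. All 3 samples are labelled as biological replicates of that 1 line and carry the same genotype, with no treatment named and the age given as unknown. There is no second group, and no immunoprecipitation from flies without the tag was analysed here. A whole fly mixes many tissues, so strong binding in a few cells and weak binding in many cannot be told apart.

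Chaperones bind unfolded or partly folded proteins and keep them from clumping. Hsp70 proteins work in cycles driven by ATP, with J-domain (DnaJ) partners that hand over clients and exchange factors that reset them, while Hsp90 finishes a selected set of clients, small Hsp proteins hold unfolded chains, and the Hsp60 and CCT chaperonins fold proteins inside a closed chamber. In flies some of these genes are silent until heat or other stress activates heat shock factor (Hsf), which binds repeated units of the letters GAA and TTC in their promoters. Others, among them several but not all of the cognate and chaperonin genes, are active in most cells. Large Maf proteins are known for binding long sites built around TGCTGAC.

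A summit, the highest point of a called peak, was assigned to a gene when it lay within 1000 bp of one of its transcription start sites (TSS). Sequences under 6 of the resulting summits are printed because the results turn on them: 4 of the genes with the 5 highest values, and the proximal Hsp68 and Hsp26 summits, chosen after their values were seen for their uneven replicates. Each is the plus strand of the NCBI Release 6 genome (dm6) and reaches from 100 bases before the summit to 100 bases after it. Capitals mark 2 heat shock units facing each other across 2 bases (GAANNTTC or TTCNNGAA), a Maf and cnc type site (TGACNNNGC), and GAGAG, the letters bound by GAGA factor. The windows are chr2L:13165702-13165902 for DnaJ-H, chr3L:3193004-3193204 for Hsp83, chr3L:9379745-9379945 for Hsp67Ba, chr3R:15243674-15243874 for Hsc70-4, chr3R:24057348-24057548 for Hsp68 and chr3L:9377505-9377705 for Hsp26.
DnaJ-H: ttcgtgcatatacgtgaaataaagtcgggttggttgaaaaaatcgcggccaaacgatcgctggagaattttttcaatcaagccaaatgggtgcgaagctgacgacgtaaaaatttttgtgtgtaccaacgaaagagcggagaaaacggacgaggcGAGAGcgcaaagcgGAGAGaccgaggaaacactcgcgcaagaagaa
Hsp83: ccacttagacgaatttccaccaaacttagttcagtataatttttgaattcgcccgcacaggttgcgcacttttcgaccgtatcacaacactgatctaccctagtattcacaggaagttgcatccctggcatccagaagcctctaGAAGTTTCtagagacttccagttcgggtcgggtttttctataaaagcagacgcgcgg
Hsp67Ba: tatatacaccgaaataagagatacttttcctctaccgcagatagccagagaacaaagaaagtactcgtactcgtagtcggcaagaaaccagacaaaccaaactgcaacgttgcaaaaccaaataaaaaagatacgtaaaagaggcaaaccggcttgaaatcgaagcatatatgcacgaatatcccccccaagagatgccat
Hsc70-4: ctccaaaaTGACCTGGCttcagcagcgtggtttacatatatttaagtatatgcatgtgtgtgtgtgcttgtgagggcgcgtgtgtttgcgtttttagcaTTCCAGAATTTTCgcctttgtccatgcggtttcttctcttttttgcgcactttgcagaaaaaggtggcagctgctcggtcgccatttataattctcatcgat
Hsp68: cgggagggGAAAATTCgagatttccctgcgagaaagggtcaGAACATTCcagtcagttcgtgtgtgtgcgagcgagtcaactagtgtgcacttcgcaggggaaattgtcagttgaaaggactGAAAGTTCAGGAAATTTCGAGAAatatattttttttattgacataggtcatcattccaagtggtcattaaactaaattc
Hsp26: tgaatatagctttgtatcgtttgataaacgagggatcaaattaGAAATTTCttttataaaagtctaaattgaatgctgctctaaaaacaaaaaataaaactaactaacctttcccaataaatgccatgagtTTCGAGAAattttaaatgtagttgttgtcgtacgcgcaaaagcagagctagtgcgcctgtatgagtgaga

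These windows differ in what the searches found in them. The Hsp68 window held 6 paired heat shock matches, of which 4 overlapped in a run 22 to 44 bases to the right of the summit. In the Hsc70-4 window 2 overlapping pairs lay on the summit itself, from 1 base before it to 11 bases after it. The Hsp83 window had 1 pair and Hsp26 had 2, while DnaJ-H had 2 GAGAG matches and Hsp67Ba had none of the marked letters.

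In the reproducible list, made by the authors with an irreproducible discovery rate (IDR) analysis, 19 of the 34 genes (55.9%) had a summit within 1000 bp of a TSS, and these are called bound. Over all coding genes the same rule called 5073 of 13945, or 36.4%. The share differed by class: all 3 DnaJ genes, the only Hsp90 gene and the only Hsp110 gene were bound, as were 6 of 8 CCT genes (75%), 4 of 6 small Hsp genes (66.7%) and 2 of 4 cognate Hsc70 genes (50%). It was lowest for the Hsp60 genes, with 1 of 4 (25%), and the inducible Hsp70 genes, with 1 of 7 (14.3%). The 6 unbound genes of the last class are near-identical copies with little sequence of their own, and without them 19 of 28 (67.9%) were bound. The classes are small, no test was made between them, and the counts stand beside the background share as a description.

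The 19 bound genes had 26 promoter summits in 25 regions, 12 genes with 1 and 7 with 2, out of 5846 promoter summits of all coding genes. For 22 of the 26 the nearest coding TSS was that of the chaperone gene. The other 4 lay nearer to another gene, at 59 bp from SMC1 (beside Hsp68), 171 bp from CG10324 (beside CCT3), 177 bp from CG30349 (beside CCT8) and 238 bp from Sirt1 (beside DnaJ-H). The summit of DnaJ-60 was 10 bp from its own start and equally far from that of CG42568. Positions were close to those of other bound genes: the strongest summit lay a median of 197 bp from the TSS against 171 bp over 5073 genes, and it was upstream in 13 of 19 (68.4%) against 67.8%.

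Signal is the caller's enrichment value as deposited, and each replicate has its own scale, with medians of 113.6, 242.1 and 160.6 in replicates 1, 2 and 3. Values below are therefore relative signals: a replicate's strongest summit within 200 bp, divided by that replicate's median over the 10265 IDR peaks found in all 3 lists. For unbound genes, which have no IDR summit to match, the replicate's strongest peak within 1000 bp of a TSS was divided by the same median. A relative signal of 1 is a typical reproducible peak. Read depth is unknown, so no counting interval can be given for them. Where a gene had 2 summits, the one with the higher deposited signal gives the gene's value, and 18 of the 19 had a value in every replicate.

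**Figure D1:**
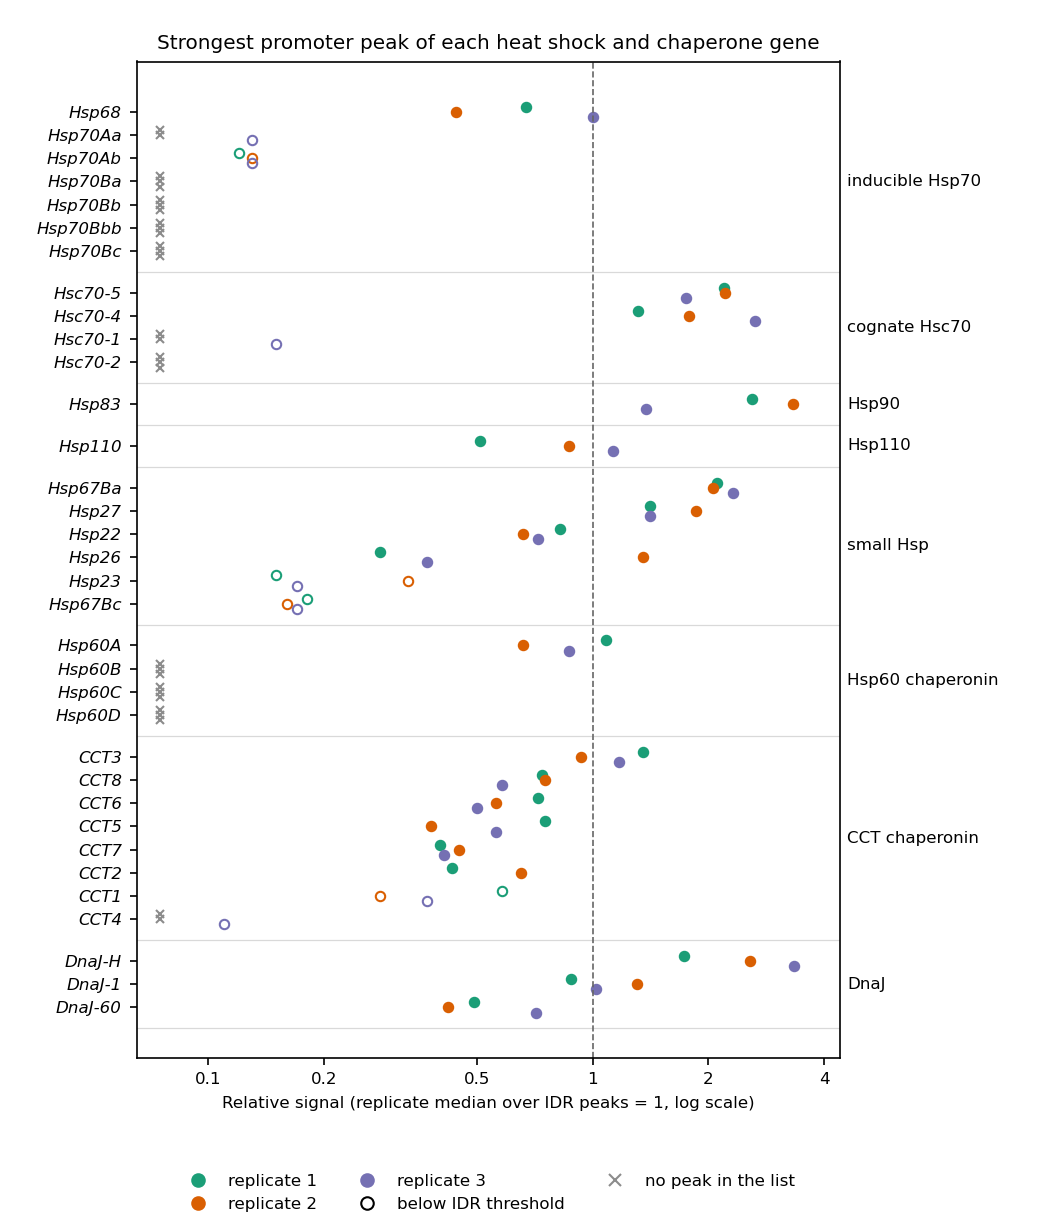
Relative signal (log scale, replicate median over IDR peaks = 1, dashed line) of the strongest promoter peak of each of the 34 genes, grouped by chaperone class, with 1 point per replicate. Filled points are bound genes, with values within 200 bp of the IDR summit. Open points are peaks below the IDR threshold, the strongest within 1000 bp of a TSS, and crosses mark a list with no peak. CCT2 has no replicate 3 point because no summit lay within 200 bp there. DnaJ-H, Hsp83, Hsp67Ba, Hsc70-5, Hsc70-4 and Hsp27 lie above 1 in all 3 replicates, and 5 of the 6 Hsp70 copies have at most 1 open point.

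The gene for the fly's Hsp90, Hsp83, carried a summit 112 bp upstream of a TSS (chr3L:3192890-3193285), in the 5' UTR of another of its transcripts. Its relative signals were 2.60, 3.32 and 1.38 in replicates 1, 2 and 3 (2.44 ± 0.98, SD, n = 3). All 3 were above a typical peak, with replicate 3 clearly lower than the others. A second summit in an intron, 993 bp downstream, had 1.07, 1.08 and 0.96 (1.04 ± 0.06, SD, n = 3). That weaker site hardly varied between replicates.

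Among the cognate Hsp70 genes, which are made without stress, the summit of Hsc70-5, the mitochondrial Hsp70, lay exactly on a TSS (chr2R:14255970-14256479). It had relative signals of 2.20, 2.21 and 1.75 (2.05 ± 0.26, SD, n = 3). Hsc70-4, the main cytosolic Hsp70, had its stronger summit in an intron, 445 bp upstream of the nearest of its starts (chr3R:15243532-15244011), with 1.31, 1.78 and 2.64 (1.91 ± 0.68, SD, n = 3). The values of these genes overlapped, so their order is not resolved. A second Hsc70-4 summit in the 5' UTR, 43 bp downstream of a TSS, had 0.96, 1.09 and 0.74 (0.93 ± 0.18, SD, n = 3). Every replicate was higher at the intron than at the 5' UTR. Hsc70-1 and Hsc70-2, the remaining cognate genes, were unbound, with the nearest IDR summit at 8892 bp and 7386 bp.

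Of the inducible Hsp70 genes Hsp68 alone was bound, with 2 summits that behaved differently. The proximal one, 138 bp upstream of the start (chr3R:24057196-24057699), had relative signals of 0.41, 0.92 and 0.26 (0.53 ± 0.34, SD, n = 3) and was highest in replicate 2. The distal one, 918 bp upstream and next to SMC1, a cohesin subunit gene, had 0.67, 0.44 and 1.00 (0.70 ± 0.29, SD, n = 3) and was lowest in replicate 2. The means differed by less than either SD, and the replicates ranked the sites in different orders. When a summit also had to match the 10688 strongest peaks of each of the 3 replicates, Hsp68 was no longer bound, which left none in the class. With that match asked of a pair of replicates, Hsp68 was bound when replicate 2 was left out and not when replicate 1 or replicate 3 was.

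The exchange factor Hsp110, which resets Hsp70, had a summit 32 bp downstream of a TSS, in its 5' UTR (chr3L:14036799-14037302) with 0.51, 0.87 and 1.13 (0.84 ± 0.31, SD, n = 3). Its replicates straddled the value of a typical peak.

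All 3 genes named DnaJ, which code for J-domain partners of Hsp70, were bound. DnaJ-H had the highest mean of the genes (chr2L:13165448-13166078), in the 5' UTRs of DnaJ-H and of its overlapping neighbour Sirt1, a deacetylase gene, with 1.73, 2.57 and 3.34 (2.55 ± 0.80, SD, n = 3). All of its replicates lay well above a typical peak, and replicate 1 was the lowest. Without replicate 3 the mean was 2.15, below the 2.96 of Hsp83, so which of them leads depends on that replicate. A second summit in the same peak, 67 bp from the TSS of DnaJ-H, had 1.73, 1.28 and 1.15 (1.39 ± 0.31, SD, n = 3). The replicate 1 value is the same number at both because they share 1 replicate summit.

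DnaJ-1, the heat-inducible Hsp40, had 0.88, 1.30 and 1.02 (1.07 ± 0.21, SD, n = 3) at a summit 435 bp into its 5' UTR (chr3L:5751628-5751878), and 0.88, 1.11 and 1.02 (1.00 ± 0.12, SD, n = 3) at another 230 bp in. DnaJ-60 had 0.49, 0.42 and 0.71 (0.54 ± 0.15, SD, n = 3) at chr2R:24159050-24159553. The replicates of DnaJ-60 all stayed below every replicate of DnaJ-1, and those of DnaJ-1 below every replicate of DnaJ-H.

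The 6 small Hsp genes examined sit together in the 67B region, 14184 bp of chromosome arm 3L (chr3L:9371511-9385694) that holds 8 coding genes. CG4461, between Hsp22 and Hsp26, is a further small Hsp gene that the symbol rule leaves out, and it was unbound. Of 7 IDR summits within 1000 bp of the region, 5 lay inside it and the other 2 were beyond its left end at Fdx1, a ferredoxin gene. Bound and unbound genes were interspersed along the cluster. Hsp67Bc, at the left end, was unbound, Hsp22 was bound, Hsp26 and Hsp67Ba were bound, Hsp23 was unbound, and Hsp27 at the right end was bound.

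Hsp67Ba, a less studied member of the cluster, had the strongest summit inside the cluster, between genes 311 bp upstream of its start (chr3L:9379676-9380035), with 2.11, 2.06 and 2.32 (2.16 ± 0.14, SD, n = 3). Hsp27, a small Hsp found in nuclei, had 1.41, 1.86 and 1.41 (1.56 ± 0.26, SD, n = 3) at a summit 136 bp upstream (chr3L:9383766-9384102). Every replicate of Hsp67Ba was above every replicate of Hsp27. A second Hsp67Ba summit 521 bp upstream had 2.11, 1.18 and 1.24 (1.51 ± 0.52, SD, n = 3), and its replicate 1 value is again shared with the first.

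Hsp22, which acts in mitochondria, had 0.82, 0.66 and 0.72 (0.74 ± 0.08, SD, n = 3) at chr3L:9373489-9373678, in its own 5' UTR and the 3' UTR of CG4456. The 3 replicates were close together and below a typical peak. Hsp26 had 0.28, 1.35 and 0.37 (0.67 ± 0.59, SD, n = 3) at a summit 178 bp upstream (chr3L:9377353-9377856). Only replicate 2 showed a peak above the typical level there, and without it the mean was 0.33. Replicates 1 and 3 had stronger peaks, of 0.39 and 0.63, within 1000 bp of a TSS but not within 200 bp of that summit.

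**Figure D2:**
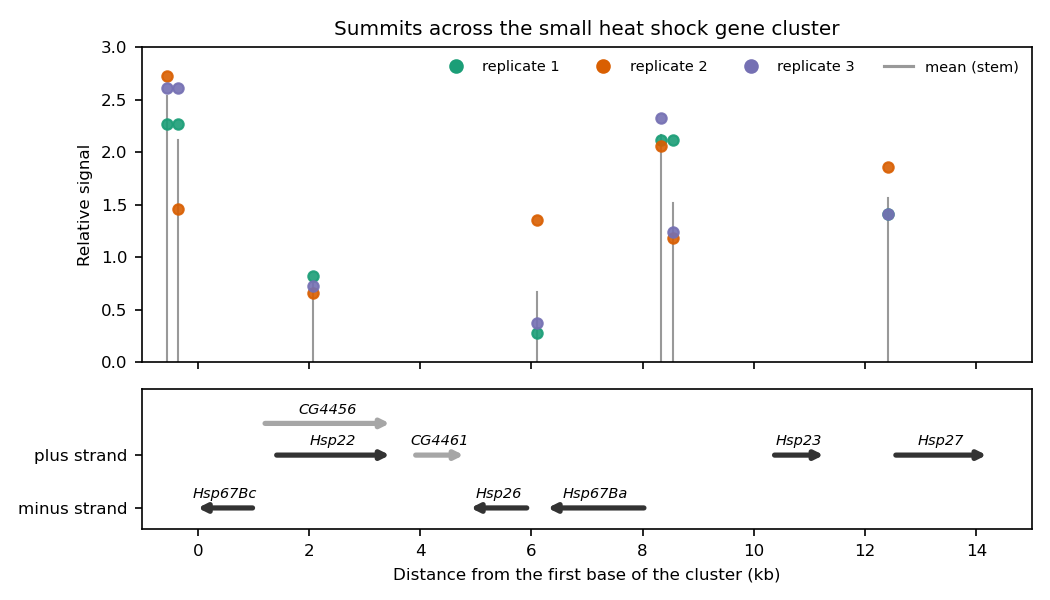
Upper panel: relative signal of each IDR summit in and within 1000 bp of the 67B cluster, with points for the 3 replicates and a stem for their mean, against distance in kb from the first base of the cluster. Lower panel: coding genes with arrows for strand, black for the 6 small Hsp genes examined and grey for CG4456 and for CG4461, a further small Hsp gene. Signal is highest at Fdx1 (means 2.53 and 2.11) and at Hsp67Ba (2.16), and at Hsp26 replicate 2 stands far from replicates 1 and 3.

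Among the chaperonins, Hsp60A, the mitochondrial chaperonin, had 1.08, 0.66 and 0.87 (0.87 ± 0.21, SD, n = 3) at a summit 148 bp upstream of a TSS (chrX:11108082-11108585). Its relatives Hsp60B, Hsp60C and Hsp60D had no peak in any replicate list within 1000 bp of a TSS. Their nearest IDR summits were 87454, 62124 and 11606 bp away.

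CCT is a ring of related subunits that folds actin and tubulin, and each gene examined codes for a subunit. CCT3 was highest, with 1.35, 0.93 and 1.17 (1.15 ± 0.21, SD, n = 3) at a summit 430 bp upstream (chr3R:16646923-16647426), the one nearer to CG10324. Its own nearer summit, at 224 bp, had 1.35, 0.51 and 1.17 (1.01 ± 0.44, SD, n = 3), of which the replicate 1 and 3 values are shared with the first. CCT3 was the single CCT gene with a mean above 1.

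CCT8 had 0.74, 0.75 and 0.58 (0.69 ± 0.09, SD, n = 3) at chr2R:8907089-8907592, CCT6 had 0.72, 0.56 and 0.50 (0.59 ± 0.11, SD, n = 3) at chrX:15746199-15746702, and CCT5 had 0.75, 0.38 and 0.56 (0.56 ± 0.18, SD, n = 3) at chr2R:12174390-12174893. These genes overlapped one another and stayed below 1 in every replicate. CCT7 had 0.40, 0.45 and 0.41 (0.42 ± 0.03, SD, n = 3) at a summit 4 bp from its start (chr3R:8801308-8801811), weak in all replicates alike. CCT2 had 0.43 and 0.65 in replicates 1 and 2 at a summit in its intron, 287 bp downstream of the start (chrX:9089548-9090051), and no replicate 3 summit within 200 bp. Within 1000 bp of the CCT2 start, the measure used for unbound genes, replicate 3 had a peak of 0.27.

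The CCT count depends on the threshold. CCT2 and CCT7 were just inside it, with deposited IDR signals of 226.1 and 231.1 where the lowest in the list was 215.6, and CCT1 was just outside with a signal of 196.1 in the list from the pooled replicates. CCT1 had a peak in every replicate, at 10, 7 and 7 bp upstream of its start, with relative signals of 0.58, 0.28 and 0.37. In replicate 1 that is above CCT7 and CCT2. When a summit also had to match the 10688 strongest peaks of all 3 replicates, 3 CCT genes were bound. With the match asked of a pair of replicates, 3 were bound without replicate 1, 4 without replicate 2 and 3 without replicate 3.

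Ordered by mean, the 18 genes with 3 values ran from DnaJ-H through Hsp83, Hsp67Ba, Hsc70-5, Hsc70-4, Hsp27, CCT3, DnaJ-1, Hsp60A, Hsp110, Hsp22, Hsp68, CCT8, Hsp26, CCT6, CCT5 and DnaJ-60 to CCT7. The values of DnaJ-H, CCT3, Hsp68 and CCT8 come from summits nearer to another gene and cannot be credited to these genes alone. At the summits nearest their own starts DnaJ-H had 1.39, CCT3 1.01 and Hsp68 0.53, which would place DnaJ-H below Hsp27. Of the 17 neighbouring pairs in the order as given, 16 overlapped in their replicate values. The pair that did not was Hsp27 and CCT3, but Hsc70-4, just above Hsp27, overlapped CCT3 at its lowest replicate. The means of the 6 highest genes, from 1.56 to 2.55, were each above those of 67.4% to 83.1% of bound coding genes, and CCT7 was above 1.48%.

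None of the 19 genes was among the 1068 strongest peaks of the IDR list. The highest, DnaJ-H at its summit nearer to Sirt1, ranked 1297 of 10688, and 11 of the 19 were below the list's median signal of 454.5. The median of the genes' means was 0.86, against 1.07 for the 4925 bound coding genes with 3 values, and 8 of 18 were above 1 against 2635 of 4925. By replicate the medians were 0.82, 0.87 and 1.01 for the chaperone genes and 1.11, 1.03 and 1.05 for all bound genes. With the 5344 strongest IDR peaks alone, 8 of the 34 genes (23.5%) were bound against 21.1% of coding genes. Counted over all 34, the higher share of bound chaperone genes thus came mostly with weaker peaks. The 34 include the 6 Hsp70 copies, counted as unbound although their values are uncertain. Without them the share with strong peaks would be higher.

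**Figure D3:**
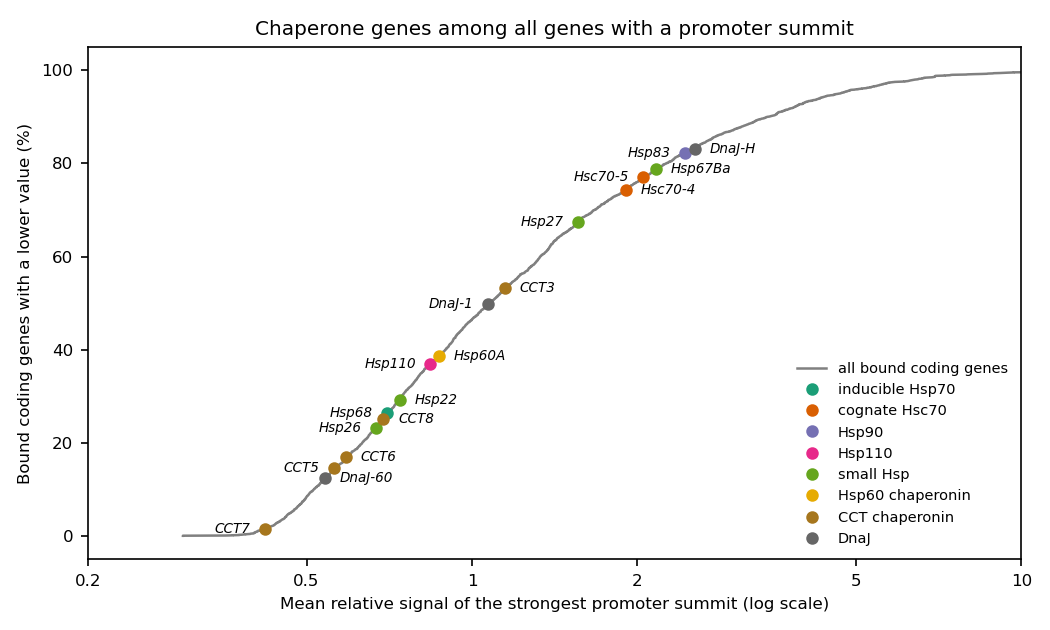
Percentage of bound coding genes with a lower mean (vertical axis) against the mean relative signal of the strongest promoter summit (log scale), with the 18 chaperone genes that have 3 values coloured by class on the grey curve of all bound coding genes. The 6 highest genes lie between 67.4% and 83.1%, and most CCT genes lie near the bottom, with CCT7 at 1.48%. The values of DnaJ-H, CCT3, Hsp68 and CCT8 are from summits nearer to another gene.

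The 15 unbound genes were Hsp70Aa, Hsp70Ab, Hsp70Ba, Hsp70Bb, Hsp70Bbb, Hsp70Bc, Hsc70-1, Hsc70-2, Hsp23, Hsp67Bc, Hsp60B, Hsp60C, Hsp60D, CCT1 and CCT4. The replicate lists, which hold 30000 peaks each and include background, showed a peak within 1000 bp of a TSS in all 3 replicates for 4 of them. Over unbound coding genes this was so for 2029 of 8872, or 22.9%, which is close to the share here. Counting bound and unbound genes together, 23 of the 34 had a peak in all 3 lists, against 7037 of 13945 coding genes, or 50.5%.

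Besides CCT1 those 4 were Hsp23, Hsp67Bc and Hsp70Ab. Hsp23, a cytosolic small Hsp, had relative signals of 0.15, 0.33 and 0.17, with replicate 2 the highest. Hsp67Bc had 0.18, 0.16 and 0.17, and Hsp70Ab had 0.12, 0.13 and 0.13. The last 2 genes were weak and even across replicates. Hsp70Aa, Hsc70-1 and CCT4 had a peak in replicate 3 alone, at 0.13, 0.15 and 0.11. The remaining 8 genes, which are Hsp70Ba, Hsp70Bb, Hsp70Bbb, Hsp70Bc, Hsc70-2, Hsp60B, Hsp60C and Hsp60D, had none in any list.

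For the Hsp70 copies absence of a peak says little. Short reads that match several places are often discarded or shared out, and no source used here says how they were handled. Of the 971 stretches of 31 bases within 500 bp of the TSS, 22.7% occurred once in the genome for Hsp70Aa, 18.1% for Hsp70Ab, 28% for Hsp70Ba, 3.19% for Hsp70Bbb, 1.85% for Hsp70Bb and 0% for Hsp70Bc. Hsp60D was at 52.3% and CCT2 at 81.5%, while Hsp68 and every other gene were at 94.3% or more. The values of the Hsp70 copies are therefore uncertain, and the effect of repeated sequence on the peak lists was not tested.

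Letters under the summits were searched on both strands, up to 100 bases to each side. The Maf core TGCTGAC was in 0 of the 26 chaperone summits (95% Wilson interval 0% to 12.9%) and in 5.1% of the 5846 promoter summits. TGACNNNGC was in 1 (3.85%), at the Hsc70-4 intron, against 7.51%, and the bZIP site TGANTCA in 1 (3.85%), at the second DnaJ-1 summit, against 5.01%. A TGACNNNGC match can overlap a TGCTGAC or TGANTCA match. With 26 windows such low shares cannot be told from the background, and no match says only that these letters are not in the window.

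Heat shock units were more frequent. A pair of facing units was in 7 of 26 summits (26.9%, Wilson interval 13.7% to 46.1%) against 9.54% of all promoter summits, at Hsp68, Hsc70-4, Hsp26, Hsp110, CCT2 and both summits of Hsp83. A run of 3 alternating units, each 2 bases from the next, was in 3 (11.5%, Wilson interval 4% to 29%), the proximal Hsp68, the Hsc70-4 intron and the CCT2 summits. Of all 5846 promoter summits only 21 held such a run, or 0.359%, so 3 of those 21 belong to chaperone genes. Each 3-unit run also counts as pairs. The intervals cover counting error only, and summits in windows that overlap are not independent. The genes were taken by heat shock and chaperone names, and a pair was in 47.1% of their promoters, bound and unbound, against 15.9% of all. A higher share under their summits therefore describes the genes chosen and is no result about tj binding.

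The 3 summits with a run had unlike strengths. The Hsc70-4 intron had a mean of 1.91, proximal Hsp68 one of 0.53, and CCT2 was near the threshold. Other genes beside such a summit included Sxl, the sex determination gene, with 1.73, 1.59 and 1.56 (1.63 ± 0.09, SD, n = 3), and cnc, which codes for a bZIP protein of the stress response, with 0.88, 1.09 and 0.99 (0.98 ± 0.10, SD, n = 3). Near Ubi-p63E, a polyubiquitin gene, the replicates were 0.36, 1.24 and 3.06 and far apart. These examples were chosen after their values were seen.

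The promoters themselves were searched from 250 bases before to 50 after the most upstream start of each gene. Bound calls used every start, so promoters of later starts are missed. The pair printed under the stronger Hsp83 summit, for example, is not counted here. In these promoters 3 alternating units were in 7 of the 34 genes (20.6%) and in 60 of 13945 coding genes (0.43%). The 7 were Hsp68 and the 6 Hsp70 copies, whose sequences are not independent. Of the 60 genes 25 (41.7%) were bound, made up of 1 of the 7 chaperone genes and 24 of 53 others (45.3%). A facing pair was in 16 of 34 promoters (47.1%) against 15.9%, and it was in 7 of 19 bound and 9 of 15 unbound genes, 6 of the 9 being the Hsp70 copies. Without those copies it was in 3 of 9 unbound genes.

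Other promoter letters differed in where they fell. GAGAG was in 3 of 19 bound and 11 of 15 unbound promoters, 6 of the 11 being the Hsp70 copies, and in 29.7% of all promoters. TATCGATA, the DRE letters found at many constantly active genes, was in 5 promoters, all of bound genes (Hsp83, Hsp110, CCT2, CCT5 and DnaJ-1), and in 9.36% of all. How often genes with GAGAG or TATCGATA are bound over all coding genes was not examined. Neither split can therefore be called particular to the chaperone genes. TATAAA was in 24 of 34 promoters (70.6%) against 45.8%, 6 of the 24 being the Hsp70 copies. Under the 26 summits GAGAG was in 5 (19.2%) against 28.1%, TATAAA in 10 (38.5%) against 25.1% and TATCGATA in 0 against 4.4%.

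Replicate 2 stood apart from the other replicates at Hsp26 and at the proximal summit of Hsp68, both heat-inducible genes, a pattern that was noticed in the values and not tested. The log2 difference between replicate 2 and the mean log2 of replicates 1 and 3 was taken within 200 bp of each summit. At Hsp26 it was 2.05, larger than at 99.4% of 5575 promoter summits with 3 values. That difference leaves out stronger peaks of replicates 1 and 3 (0.39 and 0.63) elsewhere in the Hsp26 promoter and would be smaller with them. It was 1.49 at the proximal Hsp68 summit (98.2%), 0.81 at Hsp83 (92.7%), 0.45 at the stronger DnaJ-1 summit (82.2%) and 0.39 at Hsp27 (79.7%). Other small Hsp summits were near or below even, at -0.22 for Hsp22 (33.2%), -0.10 for Hsp67Ba (43%) and -0.46 for its second summit (16.7%). It went further the other way at the second CCT3 summit, with -1.31 (1.72%), at distal Hsp68, with -0.91 (4.3%), and at CCT5, with -0.78 (6.26%). Hsc70-4, whose intron summit holds a 3-unit run, was even at -0.06. Over all 20 summits with such a run the median was 0.12, against -0.02 at 5555 without. Hsp26 and proximal Hsp68 were picked for this difference, so their percentages only describe them. Other replicates also stood apart at single summits. By the same measure replicate 3 was at -1.09 at Hsp83 (4.39%) and 0.89 at distal Hsp68 (95.6%), and replicate 1 at -0.95 at Hsp110 (5.78%). The labels give no stress treatment or collection condition for any replicate, and no cause of these replicate differences was tested.

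**Figure D4:**
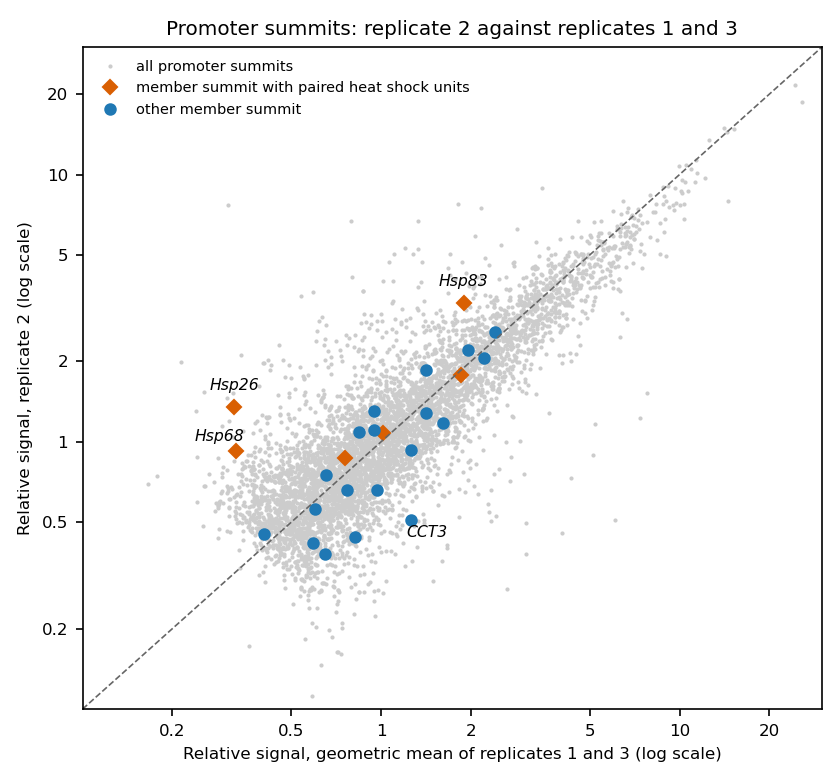
Relative signal in replicate 2 (vertical, log scale) against the geometric mean of replicates 1 and 3 (horizontal, log scale) for 5575 promoter summits (grey), with chaperone summits holding a pair of heat shock units as diamonds and other chaperone summits as circles; the dashed line marks equal values. Hsp26 (log2 difference 2.05) and proximal Hsp68 (1.49) lie far above the line, and the second CCT3 summit (-1.31) lies below it.

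A list of 31 other genes of the same machinery, covering Hsf, cochaperones, further small Hsp genes and prefoldin, the complex that passes chains to CCT, had 15 bound (48.4%, against 36.4% of all coding genes). By role this was Hsf itself, 10 of 19 cochaperone and other chaperone genes (52.6%), 3 of 6 prefoldin genes (50%) and 1 of 5 further small Hsp genes (20%). The strongest was nudC, a cochaperone gene, with 2.58, 1.81 and 2.84 (2.41 ± 0.54, SD, n = 3). Hsc70-3, the Hsp70 of the endoplasmic reticulum, had 1.62, 2.18 and 2.68 (2.16 ± 0.53, SD, n = 3). Both were in the range of the 6 highest chaperone genes.

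Hsf had 1.90, 1.53 and 2.71 (2.05 ± 0.60, SD, n = 3), at a summit 822 bp upstream that lay nearer to the start of Pcl, a Polycomb group gene. Pfdn6, a prefoldin subunit, had 2.35, 1.89 and 1.80 (2.01 ± 0.29, SD, n = 3), at a summit nearer to Su(z)12, another Polycomb group gene. Each of these summits sits in a shared region and cannot be credited to either neighbour alone. The J-domain gene mrj had 1.77, 2.31 and 1.61 (1.90 ± 0.37, SD, n = 3), and stv, the gene for a BAG-domain partner of Hsp70, had 1.88, 1.91 and 0.97 (1.59 ± 0.53, SD, n = 3). At stv replicate 3 was the low one, as at Hsp83.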

How the data were processed

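Each replicate, the pooled replicates and the IDR analysis gave a peak list on dm6, per the descriptions deposited beside the lists. The replicate and pooled lists were derived from alignments and a control alignment. No source used here names the aligner, the caller or the IDR cutoff. Each deposited signal is the authors' enrichment value per peak, in unstated units, and was used as ratios within a list. The IDR list is exactly the 10688 strongest peaks of the pooled list. The lists on dm3 were not used here.

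Start sites came from Ensembl release 115 and sequence from the NCBI Release 6 assembly. SDs are over 3 replicates, and depth is unknown. Members, lists and searches were chosen with earlier results of these data known, so no test was made. In each class up to 6 genes with the strongest summit are given by replicate, every unbound gene is named, and of the 34 pathway symbols written the 6 strongest are given. 1 of those symbols was a member under another name and 2 did not match 1 gene. Scripts were tested on simulated data and used Python 3.11.15, NumPy 2.4.6, pandas 2.3.3, SciPy 1.17.1 and Matplotlib 3.10.9.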

Additional observations from a re-analysis of the deposited data

How the results depend on the processing

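The 19 bound chaperone genes (55.9%, against 36.4% of coding genes) stayed 19 within 500 bp (coding genes 31.9%) and with gene bodies added (38.6%). They were 21 within 2000 bp (61.8% against 41.9%) and 18 when a summit went to its nearest start alone (52.9% against 27.6%). The strongest pooled peaks are the same list, so that alternative is no check. With the 5344 strongest IDR peaks 8 were bound (23.5%, against 2939 coding genes, 21.1%), with 8 of the 31 pathway genes, 0 inducible Hsp70 genes, 2 small Hsp, 0 Hsp60 and 1 CCT. With peaks that also matched the 10688 strongest of all 3 replicates 13 were bound (38.2% against 29.9%), with 0 inducible Hsp70 and 3 CCT genes. Asking that match of the replicates left after leaving out 1 gave 13 to 16 (38.2% to 47.1%, against 31.4% to 32.2%), 0 to 1 inducible Hsp70 and 3 to 4 CCT. The IDR list itself was kept, so these counts could not fall below the 13 of all 3 replicates. How the list would change without a replicate was not tested. Median signals without a replicate were 0.82 to 0.93.

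The median relative signal of 0.86 was 0.99 with replicate summits within 50 bp, where 15 genes had 3 values. The genes that dropped out were CCT6, CCT7 and CCT8, with means of 0.59, 0.42 and 0.69. Every gene that stayed had a lower mean than before, such as 2.26 against 2.44 for Hsp83. The higher median therefore reflects the loss of weak genes, and the median over all bound coding genes is not given at 50 bp. With all replicates kept, 30 of 33 alternatives for single genes moved the value by less than the spread between replicates. Each alternative changed the genes by nearly the same factor, so this count says little about single genes. Within 50 bases of the summit, TGACNNNGC and TGANTCA were in 0% of chaperone summits, against 4.57% and 2.58% of all promoter summits, GAGAG in 7.69% against 14.8% and TATAAA in 19.2% against 13.4%. Within 200 bases GAGAG was in 38.5% against 47.9%, TATAAA in 57.7% against 42.3%, and TATCGATA in 11.5% against 7.44%, the reverse of its order within 100 bases. The 3-unit run stayed at 11.5% in both, against 0.171% and 0.667% of all promoter summits. No paired analysis was possible because there was 1 group. The exclusion of the 6 Hsp70 copies was chosen after seeing the data. Read depth, the control and untagged flies limit every value, since none was analysed here.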
